A study of Mus musculus with 4 samples.

Results

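Rab GTPases are the small Ras-like switches of membrane traffic. They were taken here as every gene of the table whose symbol is Rab followed by a number and at most a letter and a further digit, which gave 59 of 22063 genes. The rule used symbols only and no measured value. Of the 59 genes, 47 had enough counts to be tested, and 12 were not tested.

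The samples were ID8 cells, a mouse ovarian cancer line derived from ovarian surface epithelium, that carried a lentiviral short hairpin RNA. The control cells (shCtrl, 2 libraries) carried a control hairpin and are labelled wild type, and the knockdown cells (shUSP9X, 2 libraries) carried a hairpin against the deubiquitinase gene Usp9x. All libraries come from 1 cell line, and the comparison asks which transcripts differ once Usp9x is knocked down. The study lists more than 1 mouse hairpin against Usp9x, and the labels do not state which of them these libraries carry, although a number in the library names may refer to it. They also do not state whether TGF-β1 or low oxygen was applied, or whether the libraries of a group came from separate cultures. Poly(A) RNA was sequenced with a kit that does not mark strand, and the estimated counts summed to 17232006 and 15611363 in shCtrl and to 19978889 and 17021261 in shUSP9X. P-values therefore rest on the spread between 2 libraries a group, which may be technical. The test moderates the spread of each gene with that of the other genes, so small p-values also rest on this pooling. A permutation of 2 against 2 cannot reach a p of 0.05.

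A Rab protein carries prenyl groups that hold it to membranes, binds GTP to become active and releases its effectors once the GTP is cleaved. Exchange factors (GEFs) load the GTP, GTPase-activating proteins (GAPs) end the active state, and GDP dissociation inhibitor (GDI) takes the inactive protein off the membrane. Each member marks a compartment, such as Rab1 between endoplasmic reticulum (ER) and Golgi, Rab5 on early endosomes, Rab11 on recycling endosomes, Rab7 on late endosomes and Rab27 on secretory vesicles, and epithelial tumour cells use these routes to recycle receptors and integrins and to secrete vesicles.

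The targeted gene was examined first. Usp9x (chromosome X, 13071498 to 13173328, plus strand, GRCm38) stood at 298 and 282 CPM (counts scaled to library size by TMM) in shCtrl and at 19.7 and 20.5 in shUSP9X. It was 14.4-fold lower (log2 fold change -3.85 ± 0.06 SE, adjusted p = 4.7e-26, edgeR's quasi-likelihood test with Benjamini-Hochberg adjustment, as for all adjusted p-values below). With an offset for GC content and transcript length, described below, it was 4.69-fold lower (-2.23 ± 0.06).

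Markers of the cell of origin were present. Of 9 genes of ovarian surface epithelium and mesothelium, 8 had over 3 counts in every library, led by Krt19 (FPKM 449 and 457 in shCtrl, 493 and 471 in shUSP9X), and Krt7 was at 0, 0, 2 and 3 counts. Their levels were not all stable. The keratins Krt8 (log2 fold change 0.92, and 0.70 with the offset) and Krt18 (0.64 and 0.37) were higher in shUSP9X in both fits, and the mesothelial genes Wt1 (-0.52 and -0.58) and Msln (-0.47 and -0.67) were lower in both. The scarce Lrrn4, with 23, 17, 9 and 5 counts, passed the filter on low counts only through shCtrl. Cdh2 was lower without the offset only (-0.50 and -0.00), Krt19 turned from higher to lower (0.12 and -0.13), and Upk3b was not called. The part of these shifts in the Rab values was not tested. Markers of other cells were at low levels, and some differed between groups or between libraries of a group. Leukocyte markers summed to 0 and 1 counts in the control libraries and to 105 and 97 after knockdown, mostly Itgam (0, 0, 72 and 75) and Ptprc (0, 0, 29 and 18), with Cd3e at 0 in every library and Lyz2 at 0 in 3 of 4. Melanocyte markers summed to 6 and 67.14 counts in the control libraries and to 5 and 3 after knockdown, so the second shCtrl library stood apart with 31 counts of Dct and 23 of Pmel. The erythroid markers summed to 0, 0, 1 and 8.45 counts, neuronal markers to 8, 4, 0 and 8, and endothelial markers to 181, 184, 128 and 118, mostly Tek, with Cdh5 at 0 throughout. Tek was called lower in shUSP9X in both fits (-0.80, and -0.48 with the offset).

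ID8 cells expressed most of the family. In every library 42 of the 59 genes had an FPKM (the authors' level, scaled for transcript length and library size) above 1, and 12 had a mean FPKM above 50. Rab7, which directs late endosomes to lysosomes, led at 218 and 214 FPKM in shCtrl and 229 and 232 in shUSP9X. Next came Rab5c (mean over the 4 libraries 108), Rab2a (85.4), Rab1b (81.2) and Rab1a (74.7). The order of these depended on the group, and in shCtrl Rab5c (89.1 ± 4.44) and Rab1a lay within their spread. Rab2a and Rab1a led Rab1b in shCtrl (94.9 ± 1.43, 85.3 ± 2.44 and 67.2 ± 7.13 FPKM, SD, n = 2), and Rab1b led them in shUSP9X (95.2 ± 1.15 against 75.9 ± 0.159 and 64.1 ± 0.695). The summed level of the family hardly moved, at 1549 and 1540.6 FPKM in shCtrl and 1540.4 and 1556.2 in shUSP9X, and Rab7 made up 14.1 and 13.9% of it in shCtrl and 14.9% in each shUSP9X library. The family held 0.354 and 0.351% of all counts in shCtrl and 0.336 and 0.34% in shUSP9X.

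**Figure D1:**
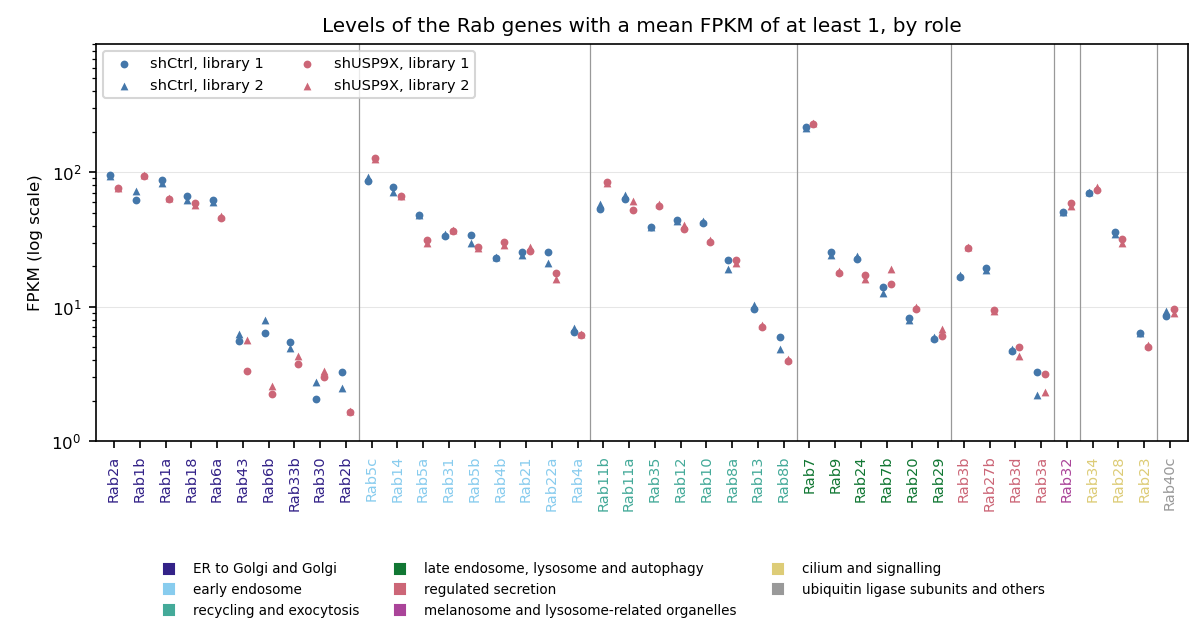
Level of each Rab gene with a mean FPKM of at least 1, grouped by role along the horizontal axis, on a log scale of FPKM. Each point is 1 library (circle, library 1; triangle, library 2; blue, shCtrl; red, shUSP9X). Rab7 lies above 200 FPKM in all 4 libraries, and the libraries of a group lie close together compared with the span of the family.

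The low end of the family was nearly empty. Rab15, Rab39, Rab3c and Rab9b had 0 counts in all 4 libraries, and 11 of the 12 untested genes, these 4 included, had at most 3 counts in every library, the floor taken for detection. The remaining one, Rab17, an apical sorting Rab of polarized epithelium, had 2, 4, 13 and 0 counts. The other 7 untested genes were Rab19, Rab25, Rab26, Rab33a, Rab39b, Rab40b and Rab42. At these depths 3 counts correspond to 0.15 to 0.192 CPM, so lower levels were not detectable, and the floors cover counting error only.

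Single members changed in both directions. Of the 47 genes tested, 20 were lower in shUSP9X at an adjusted p under 0.05, against 33.6% of all 11448 genes tested, and 14 were higher, against 33.8% of all genes. The 20 are 42.6% and the 14 are 29.8% of the tested members. With a fold change above 1.5 as well, 5 were lower (background 18.5%) and 2 were higher (background 10.6%). The lower counts include Rab37 and the higher ones Rab44, which passed the filter on low counts only through the group where they were higher, so no count here is support for a shift of the family. The median log2 fold change was -0.12 over the family and -0.00 over all genes tested. In bulk RNA, fewer cells of a kind and less RNA per cell cannot be told apart. Without the second shCtrl library, which held the melanocyte transcripts, 20 members were lower and 11 higher. Without the second shUSP9X library the higher count was lowest, at 8.

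**Figure D2:**
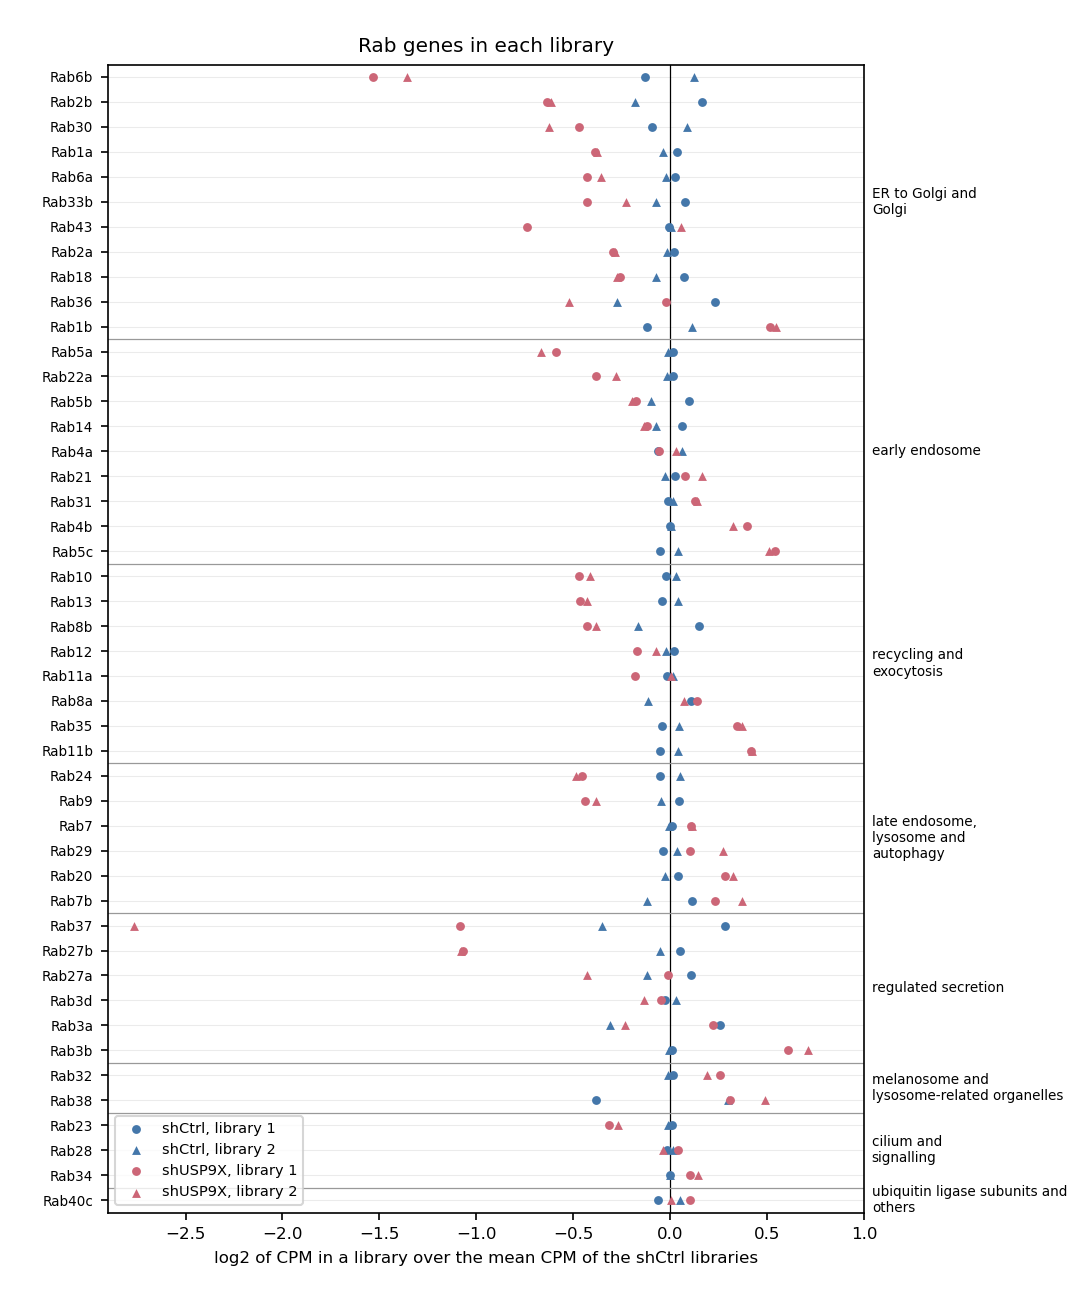
Each tested Rab gene except Rab44, which had no shCtrl counts, by role. The horizontal axis is the log2 ratio of the CPM in 1 library to the mean of the shCtrl libraries, and each point is 1 library. The shUSP9X points of Rab6b, Rab27b and Rab37 lie farthest to the left, and those of Rab3b, Rab1b and Rab5c farthest to the right.

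The direction of a Rab gene went with the base composition of its transcript. Across all genes the log2 fold change rose with GC content (Spearman's rho 0.441 over 11430 genes), and among the 47 tested Rab genes rho was 0.485, points that share the same libraries and the same trend. Of the 26 Rab genes below the median GC content of 50.4%, 16 were lower and 4 higher, with a median of -0.28, and among all genes below it 51.1% were lower and 20.6% higher (median -0.25). Of the 21 at or above it, 4 were lower and 10 higher, with a median of 0.13, while 16.1% of all genes there were lower and 46.9% higher (median 0.19), so the members' counts lie near those of their class. When each library's trend on GC content and length was removed by an offset, 11 Rab genes were lower (background 25.7%) and 14 higher (background 38.5%), and with the fold threshold 4 were lower (background 11.5%) and 3 higher (background 13.3%). The median of the family was then -0.05 and that of all genes 0.07. Of the 20 lower genes 8 stayed lower, 8 were no longer called and 4, Rab1a, Rab8b, Rab14 and Rab18, turned higher. Of the 14 higher genes 9 stayed higher, 4 were no longer called and 1, Rab34, turned lower. Such changes of call are not given here over all genes, so these counts only describe the members. The part of base composition in each value was not tested, so both values are given below for the Rab genes whose call the offset changes.

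**Figure D3:**
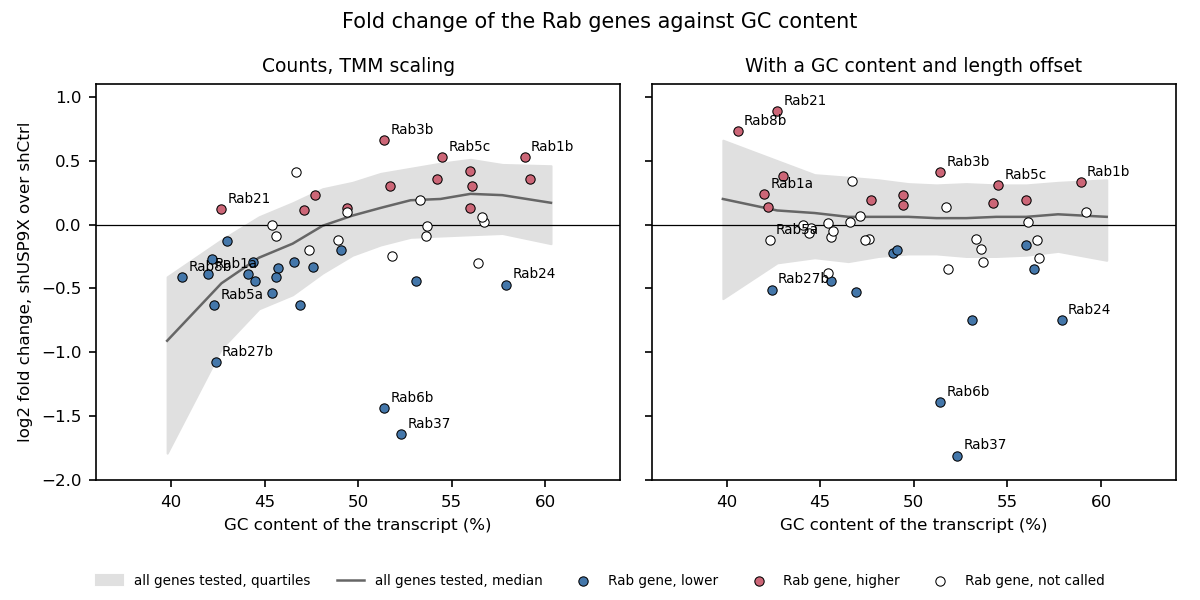
Log2 fold change of the tested Rab genes, Rab44 left out, against the GC content of the transcript, from scaled counts (left) and after the offset for base composition and length (right). The grey line and band are the median and quartiles of all genes tested in 12 classes of GC content. On the left the line runs from below 0 under 45% to above 0 past 50%. Rab21 lies above 0 under 45%, and several members, among them Rab37, Rab6b, Rab24 and Rab13, lie below 0 past 50%. On the right the line is nearly flat and the lowest members are Rab37, Rab6b, Rab13 and Rab24.

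Of 15 ER and Golgi Rabs 11 were tested, and 8 (72.7%, all genes 33.6%) were lower, 1 (9.09%, all genes 33.8%) higher and 2 not called (median -0.34 on the log2 scale). With the offset the split was even, with 3 (27.3%) lower and 3 (27.3%) higher against 25.7% and 38.5% of all genes, and a median of -0.07 against 0.07. Of these 11 genes 7 lie below the median GC content. Rab2a, which acts between ER and Golgi, dropped from 203 and 198 CPM to 163 and 164 in shUSP9X (-0.29 ± 0.04 on the log2 scale, adjusted p = 1.2e-06), its groups apart, but was -0.07 with the offset (adjusted p = 0.134). Rab6a, a Golgi Rab of retrograde transport, likewise went from -0.39 to -0.00, and shares 708 bases with Mrpl48 on the other strand, whose reads an unstranded library cannot separate.

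Among members with at least 10 counts in every library, Rab6b had the lowest log2 fold change in both fits. It is the paralogue of Rab6a best known from neurons, and lies on chromosome 9, 103111787 to 103185276, plus strand (GRCm38). It stood at 30.2 and 35.9 CPM in shCtrl and at 11.4 and 12.9 in shUSP9X, with no overlap. It was 2.72-fold lower (-1.44 ± 0.11, adjusted p = 1.5e-11), its GC content of 51.4% is near the median of all genes, and it was -1.39 with the offset (adjusted p = 1.5e-13). Across all 16 other settings it stayed lower, between -1.56 and -1.26. Its share of the summed Rab6 FPKM was 9.24 and 11.7% in shCtrl and 4.65 and 5.16% in shUSP9X.

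The Rab1 pair, which every cell needs to move cargo from ER to Golgi, was called in opposite directions. Rab1a stood at 244 and 232 CPM in shCtrl and 182 and 183 in shUSP9X (-0.39 ± 0.04, adjusted p = 8.9e-09). Rab1b stood at 116 and 136 CPM and then at 180 and 184 (0.53 ± 0.05, adjusted p = 3.1e-09). Neither gene's groups overlapped. Rab1b's share of the pair's FPKM went from 41.7 and 46.4% to 59.7 and 59.8%. The transcripts differ in GC content, 42% for Rab1a and 58.9% for Rab1b, and with the offset Rab1a was higher (0.24 ± 0.04, adjusted p = 1.6e-06) and so was Rab1b (0.33 ± 0.05), so that the opposite directions rest on the fit without it.

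Rab2b, the scarcer Rab2, fell from 8.36 and 6.58 CPM to 4.81 and 4.87 (-0.63 ± 0.19, adjusted p = 0.00535, and -0.53 with the offset). It overlaps Tox4 by 195 bases and Gm43766 by 2469 bases, both on the other strand. Without the first shCtrl library it was -0.44 with an adjusted p of 0.106. Rab18, of the ER and lipid droplets, was -0.27 (adjusted p = 7.8e-05) and 0.14 with the offset. Rab33b, which binds the autophagy protein Atg16l1, was -0.34 (adjusted p = 0.016) and -0.05 with the offset, and kept its call in 8 of 16 other settings. The libraries of Rab43 disagreed, at 25.3 and 25.5 CPM in shCtrl and 15.2 and 26.4 in shUSP9X, and its call varied. It was -0.30 without the offset (adjusted p = 0.0754, not called) and -0.35 with it (adjusted p = 0.0241, lower), and 10 of 16 other settings left it uncalled. With the replicate number as a block it was lower without the offset too (-0.32, adjusted p = 0.0225), and without the first shUSP9X library it was 0.06 (adjusted p = 0.693). Rab43 shares 4164 bases with Gm45140 on the same strand, among which the authors' counting could split reads.

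Of 9 tested early endosome Rabs 4 (44.4%) were lower and 4 (44.4%) higher, against 33.6% and 33.8% of all genes. With the offset 1 (11.1%) was lower and 4 (44.4%) were higher, against 25.7% and 38.5%. The Rab5 genes, which drive homotypic fusion of early endosomes, split within the group. Rab5a stood at 114 and 112 CPM in shCtrl and 75.1 and 71.2 in shUSP9X (-0.63 ± 0.05, adjusted p = 7.1e-11). Rab5b stood at 107 and 93.4 CPM and then 88.6 and 87.1 (-0.20 ± 0.06, adjusted p = 0.00514). Rab5c rose from 163 and 174 CPM to 246 and 241 (0.53 ± 0.04, adjusted p = 4.2e-11). None of these groups overlapped, and Rab5c went from 51 and 54.2% of the summed Rab5 FPKM to 68.4 and 68.7% while Rab5a went from 28.8 and 28.3% to 16.8 and 16.4%.

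With the offset Rab5c stayed higher (0.31 ± 0.04, adjusted p = 2.1e-08) and Rab5b lower (-0.20, adjusted p = 0.00261), and Rab5a was -0.12 with an adjusted p of 0.051. Rab5a kept its lower call in 15 of 16 other settings, among them the replicate block with the offset (-0.12, adjusted p = 0.0455). The GC content of the transcripts was 42.3% for Rab5a, 49.1% for Rab5b and 54.5% for Rab5c. Without the first shCtrl library Rab5b was -0.08 (adjusted p = 0.224). Rab5a overlaps Pp2d1 on the other strand by 221 bases.

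**Figure D4:**
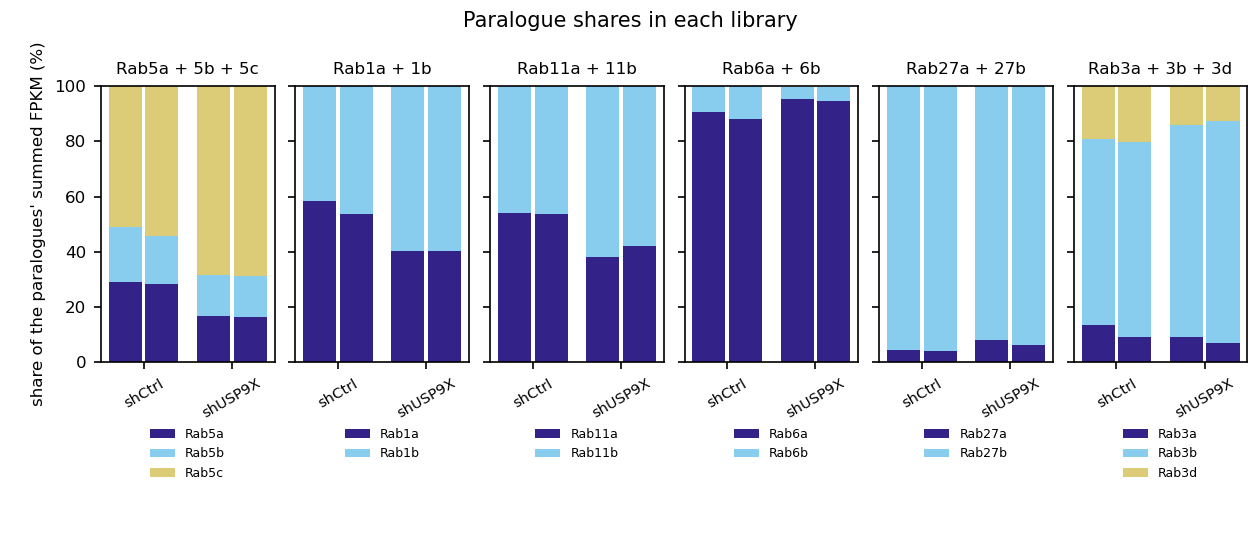
Share of each paralogue in the summed FPKM of its group, in percent, for 6 groups. Each bar is 1 library, the left pair shCtrl and the right pair shUSP9X. Rab5c, Rab1b and Rab11b take a larger share in both shUSP9X libraries than in either shCtrl library, and Rab6b a smaller one.

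The promoters of the Rab5 genes are shown because these paralogues were called in opposite directions at similar promoter GC contents (64% for Rab5a, 59.2% for Rab5b and 63.2% for Rab5c). Each run is the 250 bases before the RefSeq transcript start in GRCm38.p6, 5′ to 3′ on the gene's strand, and overlaps no exon of GENCODE M21. The windows are chr17:53478984-53479233 (plus strand) for Rab5a, chr10:128696269-128696518 (minus strand) for Rab5b and chr11:100738216-100738465 (minus strand) for Rab5c. Capitals mark ACGTG, the core of the hypoxia response element, searched on both strands because the study concerns HIF-2α.
Rab5a: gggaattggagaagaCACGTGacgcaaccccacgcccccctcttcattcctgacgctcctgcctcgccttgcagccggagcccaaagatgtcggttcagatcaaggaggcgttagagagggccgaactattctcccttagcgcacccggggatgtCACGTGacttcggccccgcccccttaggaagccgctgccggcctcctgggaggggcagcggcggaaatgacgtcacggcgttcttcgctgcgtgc
Rab5b: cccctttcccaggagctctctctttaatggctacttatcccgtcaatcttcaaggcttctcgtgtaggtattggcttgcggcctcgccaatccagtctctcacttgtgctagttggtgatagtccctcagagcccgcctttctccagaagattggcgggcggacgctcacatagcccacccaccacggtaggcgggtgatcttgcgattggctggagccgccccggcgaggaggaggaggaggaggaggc
Rab5c: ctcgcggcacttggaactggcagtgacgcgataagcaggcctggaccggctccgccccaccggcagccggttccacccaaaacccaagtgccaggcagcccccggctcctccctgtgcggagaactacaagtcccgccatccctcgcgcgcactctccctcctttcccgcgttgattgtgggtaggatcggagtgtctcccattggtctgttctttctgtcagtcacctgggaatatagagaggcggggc

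In Rab5a the motif matched 4 times at 2 places, starting 235 and 95 bases before the start, each a CACGTG palindrome that matches on both strands, and in Rab5b and Rab5c these letters do not occur. At least 1 promoter was matched by symbol for 48 of the 59 Rab genes, and 10 of these 48 (20.8%) held ACGTG in a window of this length against 18.5% of 27025 genes. A match is a description of the letters only, and binding was not measured in these libraries.

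Among the other early endosome Rabs the closely related Rab22a and Rab31 also had opposite calls. Rab22a went from 94.9 and 92.9 CPM to 72.1 and 77.4 (-0.33 ± 0.06, adjusted p = 1.0e-05) and was -0.11 with the offset (adjusted p = 0.0685). Rab31 went from 116 and 118 CPM to 128 and 129 (0.13 ± 0.05, adjusted p = 0.0159) and was 0.15 with the offset (adjusted p = 0.00555). The groups of both genes were apart, but the rise of Rab31 was small and was lost in 7 of 16 other settings. Rab4b, of fast recycling, was 0.36 (adjusted p = 6.7e-04) and 0.10 with the offset, and shares 1280 bases with Gm21983. Rab21, which carries integrins inward, was 0.12 (adjusted p = 0.0393) and 0.89 with the offset (adjusted p = 3.0e-18), and was not called in 7 of 16 other settings. Rab14 was -0.13 and 0.38 with the offset, and kept its lower call in 8 of 16 other settings.

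Recycling and exocytic Rabs showed 3 lower (37.5%, all genes 33.6%) and 2 higher (25%, all genes 33.8%) of 8 tested genes. With the offset 2 (25%) were lower and 4 (50%) higher, against 25.7% and 38.5% of all genes. Rab11b, of recycling endosomes, rose from 107 and 114 CPM to 148 and 149 (0.42 ± 0.05, adjusted p = 2.6e-08, and 0.19 with the offset), and Rab11a was at 72 and 73.4 and then 64.1 and 72.9 CPM (-0.09, adjusted p = 0.222). Rab11a was called higher only with the longest-transcript offset (0.78, adjusted p = 1.6e-10). Rab11b made up 61.9 and 57.8% of the pair's FPKM in shUSP9X against 45.8 and 46.5% in shCtrl. These shares also hold a change in the transcript length implied by count and FPKM. For Rab11b its mean was 1999 bases in shCtrl and 1739 in shUSP9X, and for Rab11a 1124 and 1196. Rab35, a regulator of endocytic recycling, rose from 89.4 and 94.9 CPM to 117 and 119 (0.36 ± 0.05, adjusted p = 7.8e-07, and 0.17 with the offset). Rab10, of basolateral and insulin-driven exocytosis, was -0.44 (adjusted p = 9.5e-09) and -0.03 with the offset. Rab13, of tight junctions, was -0.44 (adjusted p = 0.00945) and -0.75 with the offset, and kept its call in 14 of 16 other settings. Rab8b was -0.41 and 0.73 with the offset, and kept its lower call in 12 of 16 other settings. Rab8a, which carries cargo to the plasma membrane and cilium, was 0.10 (adjusted p = 0.145) and was called higher with the offset (0.23, adjusted p = 8.8e-04). Rab12 was -0.12 (adjusted p = 0.0534) and was called lower with it (-0.22, adjusted p = 6.0e-04).

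Late endosomal, lysosomal and autophagic Rabs showed 2 lower (33.3%, all genes 33.6%) and 3 higher (50%, all genes 33.8%) of 6 tested genes. With the offset 2 were lower (33.3%, all genes 25.7%) and 0 higher (all genes 38.5%). Rab9, which returns cargo from late endosomes to the Golgi, went from 36.4 and 34.2 CPM to 26 and 27.1 (-0.41 ± 0.09, adjusted p = 1.8e-04, and -0.44 with the offset). Rab24, linked to autophagy, went from 25.1 and 26.9 CPM to 19 and 18.6 (-0.47 ± 0.10, adjusted p = 2.1e-04, and -0.75 with the offset). Both stayed lower in all 16 other settings. Rab24 shares 1258 exonic bases with Prelid1 on the other strand, while its longest transcript has 1168 bases. An unstranded library cannot separate reads of such an overlap, and no setting removed them. Rab7, the most abundant member, moved by little, from 405 and 402 CPM to 434 and 436 (0.11 ± 0.04, adjusted p = 0.00855), and was 0.07 with the offset (adjusted p = 0.0542). It kept its higher call in 11 of 16 other settings. Rab7b and Rab20 were each 0.30 (adjusted p = 0.00434 and 0.046) and were 0.14 and 0.02, not called, with the offset. Rab20 lost its call in 10 of 16 other settings and Rab7b in 6 of 16.

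Among Rabs of regulated secretion 2 of 7 tested genes (28.6%) were lower, 2 (28.6%) higher and 3 not called in either fit, against 33.6% and 33.8% of all genes, or 25.7% and 38.5% with the offset. These counts include Rab44 and Rab37, described below. Rab27b, which docks secretory vesicles and multivesicular bodies at the plasma membrane, went from 56.5 and 52.7 CPM to 26 and 25.8. It was 2.11-fold lower (-1.08 ± 0.08, adjusted p = 3.2e-12), its GC content is 42.4%, and with the offset it was 1.42-fold lower (-0.51 ± 0.08, adjusted p = 4.6e-07). With the offset computed from the longest annotated transcript, a setting added after the data had been seen, it was higher (0.54, adjusted p = 1.3e-06). Rab27a was scarce and not called, at 0.877 and 0.753 FPKM in shCtrl and 0.79 and 0.592 in shUSP9X, so that Rab27b held 95.7 and 96.1% and then 92.3 and 94% of the pair's FPKM.

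Rab3b, a vesicle Rab of endocrine and neuronal cells that ID8 cells expressed at 16.5 and 17.1 FPKM, had the highest log2 fold change among members counted in every library, from counts without the offset, and lay below Rab21 and Rab8b with it. It went from 24.3 and 24 CPM to 36.7 and 39.4, with no overlap (1.58-fold higher, 0.66 ± 0.09, adjusted p = 2.9e-07), and was 0.41 ± 0.09 with the offset (adjusted p = 1.0e-04). It shares 317 bases with an antisense transcript, 8030443G20Rik. Rab3a and Rab3d were not called (0.02 and -0.09), and Rab3b made up 67.5 and 70.7% of the summed Rab3 FPKM in shCtrl and 77 and 80.9% in shUSP9X.

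A pair of secretory Rabs passed the filter on low counts only through the group where they were higher, so that their difference supports nothing about the family. Rab44 (chromosome 17, 29114145 to 29148980, plus strand), a large Rab with EF hands known from immune cells, had 0 counts in both shCtrl libraries and 52 and 33 in shUSP9X, which is at least 12.6-fold higher than a floor of 3 counts per library (adjusted p = 5.6e-08). The leukocyte markers Itgam and Ptprc had 0 counts in the same shCtrl libraries and appeared in the same shUSP9X libraries, and their part in the Rab44 counts was not tested. Rab37, known from granule secretion, had 34 and 20 counts in the control libraries and 15 and 4 after knockdown (-1.64 ± 0.50, adjusted p = 0.00503). It missed the threshold without the first shCtrl library (-1.29, adjusted p = 0.108) and without the second shUSP9X library (-1.08, adjusted p = 0.15).

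The remaining roles hold few members. Of the melanosome pair, Rab32 rose from 108 and 106 CPM to 128 and 122 (0.23 ± 0.05, adjusted p = 2.5e-04, and 0.19 with the offset), and Rab38 was not called, with 13, 19, 24 and 23 counts. Of the ciliary and signalling members, Rab23, a brake on Hedgehog signalling, was -0.29 (adjusted p = 0.00872) and 0.02 with the offset, Rab34 was 0.13 (adjusted p = 0.0351) and -0.16 with it, its higher call kept in 7 of 16 other settings, and Rab28 was 0.00. Rab40c, a subunit of a ubiquitin ligase, was not called (0.06 ± 0.10). Of 12 paralogue groups with at least 2 tested genes, 3 (Rab1, Rab5 and Rab22a with Rab31) had opposite calls, and 1, Rab5, had them with the offset. Of all genes tested 33.6% were lower and 33.8% higher, or 25.7% and 38.5% with the offset. Unrelated genes would thus often have opposite calls too, and these counts say nothing particular about paralogues.

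Counts and FPKM went opposite ways for Rab30, a Golgi Rab. It had fewer counts in shUSP9X (7.04 and 7.97 CPM against 5.41 and 4.87, -0.54 ± 0.18, adjusted p = 0.0123, and -0.38 with an adjusted p of 0.0734 with the offset), while its FPKM was 2.06 and 2.74 in shCtrl and 3.01 and 3.31 in shUSP9X. The transcript length implied by the deposited count and FPKM of each library was 3444 and 2943 bases in shCtrl and 1780 and 1457 in shUSP9X, so the authors' estimate assigned Rab30 to shorter transcripts there. Its lower call was kept in 8 of 16 other settings, and it turned higher with the longest-transcript offset (1.35, adjusted p = 1.1e-06). Over the 46 Rab genes with such a length in both groups, 4 (8.7%) were shorter by over 10% in shUSP9X, namely Rab30, Rab35, Rab11b and Rab18, against 8.94% of all genes, and 1, Rab28 (2.17%), was longer, against 3.78%.

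The partners that load, switch and read Rabs were described next, from 4 lists with 155 genes, 142 of them tested. Over the lists 59 genes (41.5%) were lower and 31 (21.8%) higher, against the 33.6% and 33.8% of all genes, and their median was -0.14 on the log2 scale. With the offset 45 (31.7%) were lower and 39 (27.5%) higher, against 25.7% and 38.5% of all genes, with a median of -0.02 against 0.07. Among 8 shared partners 4 (50%) were lower and 3 (37.5%) higher, and with the offset 3 (37.5%) were lower and 3 higher. Chm and Chml encode the Rab escort proteins that present new Rabs for prenylation, and both fell. Chm went from 39.3 and 30.2 CPM to 6.93 and 5.28 (-2.50 ± 0.14, adjusted p = 1.6e-14, and -0.70 with the offset). Chml went from 16.4 and 17.5 CPM to 2.22 and 3.45 (-2.60 ± 0.18, adjusted p = 1.1e-12, and -1.25 with the offset). Their GC contents are 37 and 40.4%, and no group overlapped. The alpha subunit of the geranylgeranyl transferase that they serve, Rabggta, was higher (0.57 ± 0.11, adjusted p = 3.6e-05, and 0.36 with the offset), and so was the Rab acceptor Rabac1 (0.26, and -0.01 with the offset).

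Of 48 tested exchange factors 16 (33.3%) were lower and 12 (25%) higher, against 33.6% and 33.8% of all genes, and with the offset 9 (18.8%) and 15 (31.2%), against 25.7% and 38.5%. The DENN-domain genes Dennd4c (-1.16, adjusted p = 4.5e-14) and Dennd1b (-0.89, adjusted p = 5.5e-10), GEFs for Rab10 and Rab35, were lower from counts and higher with the offset (0.23 and 0.70). Mon1a, part of the GEF of Rab7, and Rin3, a GEF of the Rab5 group, were higher in both fits (0.67 and 0.65, and 0.50 and 0.59 with the offset).

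Of 38 tested GAPs 18 (47.4%) were lower and 7 (18.4%) higher, against 33.6% and 33.8% of all genes, and with the offset 13 (34.2%) and 11 (28.9%), against 25.7% and 38.5%. Tbc1d8b stood at -2.58 ± 0.09 (adjusted p = 8.7e-19) and Evi5, a centrosomal TBC protein, at -1.67 ± 0.06 (adjusted p = 1.6e-18), and with the offset they were -1.47 and -0.61. Tbc1d13 (0.95) and Tbc1d2 (0.78) were higher, and were 0.82 and 0.77 with the offset.

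Of 48 tested effectors and tethers 21 (43.8%) were lower and 9 (18.8%) higher, against 33.6% and 33.8% of all genes, and with the offset 20 (41.7%) and 10 (20.8%), against 25.7% and 38.5%. The lower genes of both fits include Myo5b (0.75 and 1.26 CPM in shCtrl, 0.152 and 0.178 after knockdown), which passed the filter on low counts only through shCtrl, so these counts and those over the 4 lists are descriptions and support nothing further. Eea1, the coiled-coil tether that Rab5 recruits to early endosomes, had 1440 and 1353 counts in the control libraries and 197 and 187 after knockdown (-3.00 ± 0.08, adjusted p = 5.2e-21, and -1.44 with the offset). Gcc2, a golgin of the trans-Golgi that binds Rabs, had 989 and 779 counts and then 98 and 73 (-3.51 ± 0.12, adjusted p = 4.0e-19, and -2.33 with the offset). Their GC contents are 41.8 and 41.3%. Plekhm1, the Rab7 effector of lysosome fusion, and Micall2, an effector of Rab13, were higher (0.57 and 0.55, and 0.57 and 0.46 with the offset).

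**Figure D5:**
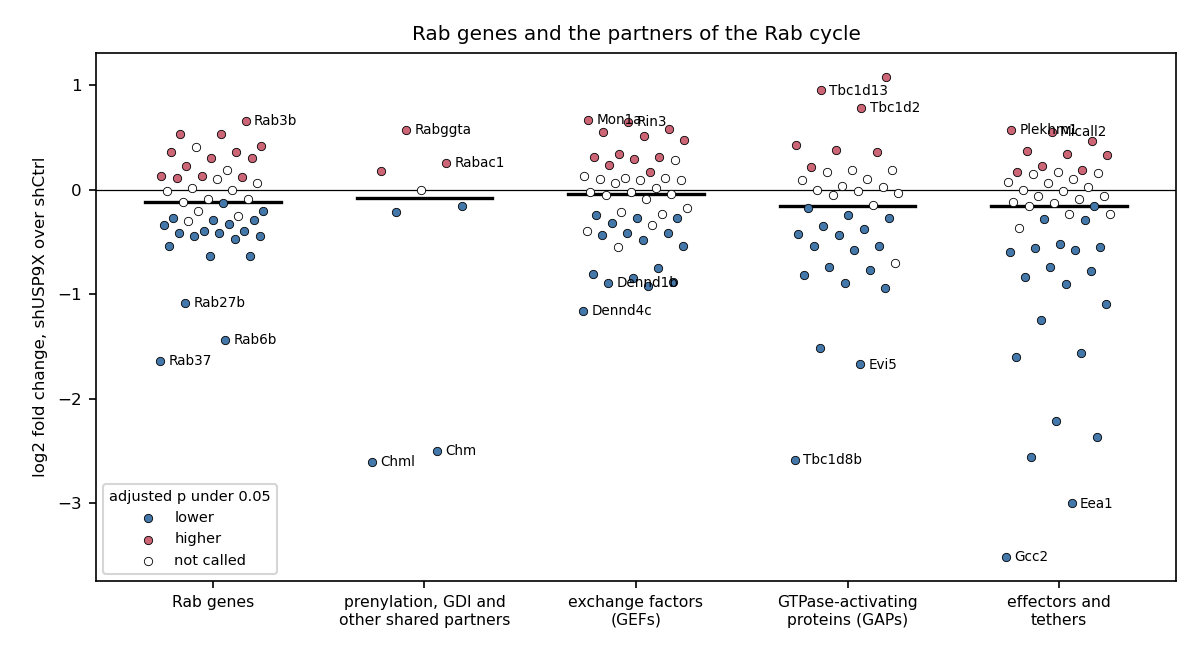
Log2 fold change of the tested Rab genes (Rab44 not drawn) and of the tested genes of 4 lists of partners. Each point is 1 gene, coloured by its call at an adjusted p under 0.05, and the bar is the median of the list. The Rab genes lie between -1.64 and 0.66, while Chm, Chml, Tbc1d8b, Eea1, Gcc2 and the scarce Myo5b lie at or below -2.50.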

How the data were processed

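Poly(A) RNA of ID8 cells was sequenced in 2 shCtrl and 2 shUSP9X libraries. The authors deposited an estimated (expected) count and an FPKM value per gene and library. The submitters' processing notes name fastp 0.18.0, Bowtie2 2.2.8, HISAT2, StringTie 1.3.1 and RSEM, without roles, and the reads were mapped to GRCm38. Between 6.4 and 6.69% of the deposited estimated counts were not whole numbers, in 7 of the 59 Rab genes (Rab11b, Rab24, Rab33b, Rab43, Rab4b, Rab5a and Rab6a). Rab5a is among them only through the value 1775.99 in the second shCtrl library. The test had been planned for whole counts, so the estimated counts were rounded.

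Samples were grouped by their labels. Replicates differed by more than counting noise (chi-square per gene 3.408 in shCtrl and 2.226 in shUSP9X), so none was a copy. Counts were filtered with filterByExpr (minimum count 10), scaled by TMM, and 11448 genes were compared in R 4.3.3 by edgeR 4.0.16 (quasi-likelihood F-test, no block, p-values adjusted by Benjamini and Hochberg). The common biological coefficient of variation was 0.0352. Standard errors are the log2 fold change over the square root of F. For the offset, a loess curve (span 0.3) of every library against GC content and log2 length was subtracted. Length was implied by count and FPKM, and GC content came from the GENCODE M21 transcript of nearest length, known for 11430 genes. Floors are 3 counts. The procedure was tested on simulated counts with no trend or with a linear trend on GC content. No length trend was simulated, so this does not show how well the offset handles the trends of these libraries.

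The members, roles, partner lists, markers and motifs were chosen with earlier results of these data known. Named were Usp9x, Rab genes with an adjusted p under 0.05 and a fold above 1.5, the 5 most abundant, paralogues with opposite calls, and the 2 lowest and 2 highest called genes of each partner list with a mean log2 CPM of at least 3. Other genes were named after their values were seen. St5 was matched to the symbol Denn2b, and Rab40a, Rab41 and protein sequences were not analysed here, and 1 marker is not reported here. Promoters were from RefSeq (GRCm38.p6). Alternatives used DESeq2 1.42.0 and limma 3.58.1 (log2(FPKM + 1) and log2(FPKM + 0.1), mean FPKM of at least 1), and others given in the closing section.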

Additional observations from a re-analysis of the deposited data

How the results depend on the processing

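Counts, medians and Rab genes were recomputed under 16 other settings, 15 of them planned, where a gene passed the filter of the setting. Rab37 and Rab44 were not tested by limma-trend nor with at least 10 counts in every library, and Rab27a, Rab36 and Rab38 not by limma-trend. The offset from the longest annotated transcript was added after the data had been seen. Rab lower calls went from 20 to 11 with the GC content and length offset and to 12 with the replicate block and that offset. Rab higher calls went from 14 to 9 with limma-trend on log2(FPKM + 1) or log2(FPKM + 0.1). With the fold threshold, lower calls went from 5 to 3 with limma-trend on log2(FPKM + 1), and higher calls from 2 to 1 with that setting and with at least 10 counts in every library, which removes Rab44, and to 7 with the longest-transcript offset. The median log2 fold change of the Rab genes went from -0.12 to -0.05 with the offset, with or without the replicate block, and to -0.02 with the longest-transcript offset, and that of the partner genes from -0.14 to -0.02 with each of these offsets, while the median of all genes went from -0.00 to 0.07 with each. Leaving out 1 library at a time gave 14 to 20 lower calls, 8 to 14 higher calls, 4 to 6 lower and 2 to 3 higher calls with the fold threshold, medians of -0.16 to -0.05 for the Rab genes and -0.13 to -0.10 for the partners, and a log2 fold change of -3.89 to -3.80 for Usp9x. DESeq2 called 15 Rab genes lower and 10 higher.

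Among single genes, Rab1a reversed to 0.24 with the offset, with or without the replicate block, and to 0.15 with the longest-transcript offset, under which Rab22a was 0.07, Rab7 -0.02, Rab27b 0.54 and Rab30 1.35. For Rab27b, Rab18, Rab22a, Rab30, Rab11a and Rab11b, among others, the longest transcript is longer than the length implied by count and FPKM. Among the 15 Rab genes that the rule for named genes chose, 20 other values kept their direction and lost the threshold, and further Rab genes described above, such as Rab20 and Rab34, lost calls too. The cause was not tested. The replicate block alone gave 21 lower and 14 higher Rab genes. Over the genes tested, the deviations of the first shCtrl and the first shUSP9X library from their group means had a correlation of -0.0396. With 2 libraries a group this cannot decide whether same-numbered libraries shared a culture or a day, and the labels do not state it. Levels under 3 counts, 0.15 to 0.192 CPM, were not detectable at this depth.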
